A study of Mus musculus with 9 samples.

Results

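Guanylate-binding proteins (GBPs) and immunity-related GTPases (IRGs) are GTP-hydrolysing proteins that cells make in response to interferon. Expression of 7 of their genes was followed in mouse hepatic stellate cells, the vitamin A-storing cells of the liver that become matrix-producing myofibroblasts in culture and in fibrosis. The genes were Gbp2, Gbp3, Gbp7 and Gbp9 of the first family and Igtp, Irgm1 and Irgm2 of the second, chosen by symbol from the deposited table. All 7 were among its 14020 genes, and all 7 were among the 10118 genes with a normalized count of at least 10 in at least 3 libraries, which were tested. Igtp met that filter in exactly 3 libraries, WT replicate 3 and double KO replicates 2 and 3. The 7 genes and the gene lists below were chosen with earlier results of these data known. Shares of all tested genes set beside their counts are therefore descriptive.

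RNA sequencing had been done on 9 libraries in 3 groups of 3, by genotype: wild type (WT), Sqstm1 knock-out (Sqstm1 KO) and a group labelled as knocked out for both Nbr1 and Sqstm1 (Nbr1-Sqstm1 double KO, or double KO). Sqstm1 encodes p62, a ubiquitin-binding autophagy receptor, and Nbr1 encodes a related receptor. All groups were liver stellate cells grown for 4 days in DMEM with serum under basal conditions, so no interferon is named among their treatments. The series title concerns opposite roles of NBR1 and p62 in the STING pathway of these cells, a route by which DNA in the cytosol leads to interferon. Its design text speaks only of an Nbr1 knock-out and of WT cells, which are not the genotypes on the sample labels, and the labels were followed. The labels name no strain, age, allele or promoter, and they do not say whether replicates came from separate animals or cultures, although the series text speaks of biological replicates. What a p-value weighs here is the spread between libraries, which may be technical.

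As background, GBPs are large GTPases of the dynamin superfamily that gather on the vacuoles and surfaces of intracellular pathogens, and several are anchored to membranes by a prenyl group. IRGs are smaller GTPases with the same kind of target. Irgm1, Irgm2 and Igtp (also called Irgm3) belong to the regulatory IRGs, which sit on the cell's own membranes and hold the effector IRGs in their inactive, GDP-bound form. Loading of both families onto vacuoles uses the ATG8 conjugation machinery of autophagy, and p62 is one of the ubiquitin adaptors found there. Transcription of these genes is classically driven through 2 DNA elements: the interferon-stimulated response element (ISRE) and the gamma-activated site (GAS).

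The promoter letters are shown because both elements can be read in them directly. RefSeq promoter windows (build GRCm38.p6, 250 bases before to 50 bases after the start) were matched by symbol for 6 of the 7 genes, all but Gbp9. The stretch from base -110 to base -1, counted back from the start site, is given 5′ to 3′ on the gene's own strand. Capitals mark matches to the ISRE letters GAAANNGAAA, or TTTCNNTTTC on the other strand, and to the GAS letters TTCNNNGAA, which read the same on both strands.
Gbp2 (chr3:142620553-142620662, + strand): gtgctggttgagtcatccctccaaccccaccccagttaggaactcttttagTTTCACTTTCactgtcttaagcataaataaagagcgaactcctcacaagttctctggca
Gbp3 (chr3:142559934-142560043, + strand): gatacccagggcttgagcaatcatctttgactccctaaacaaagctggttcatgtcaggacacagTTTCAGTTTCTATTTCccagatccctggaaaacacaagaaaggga
Gbp7 (chr3:142530226-142530335, + strand): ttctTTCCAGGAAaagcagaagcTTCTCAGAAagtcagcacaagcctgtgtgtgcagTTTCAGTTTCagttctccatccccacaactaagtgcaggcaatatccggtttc
Igtp (chr11:58199446-58199555, + strand): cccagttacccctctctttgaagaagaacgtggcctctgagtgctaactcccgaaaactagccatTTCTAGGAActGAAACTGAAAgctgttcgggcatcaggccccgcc
Irgm1 (chr11:48871421-48871530, - strand): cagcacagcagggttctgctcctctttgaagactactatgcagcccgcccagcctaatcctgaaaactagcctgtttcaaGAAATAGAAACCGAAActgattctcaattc
Irgm2 (chr11:58214867-58214976, + strand): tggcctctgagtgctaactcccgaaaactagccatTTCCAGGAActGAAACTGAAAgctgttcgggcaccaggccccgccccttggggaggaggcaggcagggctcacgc
An ISRE match lay in a window of 6 of these 6 genes, while the same search found one for 3.99% of all 27025 genes with a RefSeq window. A GAS match lay in 3 of 6 (Gbp7, Igtp and Irgm2), against 9.55% of all genes. Counted by window, 6 of the 7 windows of these genes held an ISRE match, all but a second Gbp3 window, and 3 held a GAS match, against 3.44% and 8.3% of all 32851 windows, and 0.454% of all windows held both kinds. In Gbp3 and in Irgm1 a pair of ISRE matches overlapped, from base -45 to -30 and from base -30 to -15. Gbp7 carried 2 GAS matches upstream of its ISRE, whereas in Igtp and Irgm2 the GAS and the ISRE were adjacent. The Igtp and Irgm2 windows were 91.1% identical over 271 aligned columns, so their shared arrangement is not a pair of independent occurrences. A match to these letters is a description of sequence, and no binding was measured.

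Before the members, the libraries themselves were checked. Counted reads per library, recovered from the normalized values, ran from 819677 to 1467793, and those of the 7 genes together from 35 to 570, so each member rests on few reads. The targeted gene Sqstm1 had means of 240 ± 16.1 normalized counts for WT, 52.8 ± 29.8 for Sqstm1 KO and 45.7 ± 17.7 for double KO (± SD, n = 3 each), and fell against WT in both mutant groups (limma adjusted p = 0.0023 and 0.00116). Nbr1 was at 101 ± 7.64, 78.9 ± 8.85 and 90.7 ± 17.5, with no call in any comparison, so its gene-level value does not show the second deletion in the libraries labelled double KO. The Nbr1 deletion in that group therefore rests on its label. Sqstm1 KO replicate 3 stood apart, with a correlation across genes of 0.861 and 0.863 with the other libraries of its group and reads in 12673 genes, the fewest of the 9 libraries. Uty, Kdm5d, Eif2s3y and Ddx3y, all on the Y chromosome, had a value of 0 in all Sqstm1 KO libraries and were above 0 in all WT and double KO libraries, so sex and genotype cannot be told apart in any comparison with Sqstm1 KO. Between double KO and WT, Eif2s3y was also called lower, at 15.1 ± 12.5 in double KO and 65.9 ± 5.84 in WT (log2 -2.34, limma adjusted p = 0.0162). Uty, Kdm5d and Ddx3y were not called there. Of 16 stellate cell markers, 11 were in the table, among them the collagens Col1a1, Col1a2 and Col3a1, and their summed level was 2185 to 2308 in WT, 6126 to 6779 in Sqstm1 KO and 5124 to 7097 in double KO. Against WT, 6 of the 11 rose in Sqstm1 KO and none fell, and the other 5 were not called, among them Lox (log2 -0.81, adjusted p = 0.0839), Pdgfra (-0.43) and Pdgfrb (-0.08). The other listed stellate cell markers, Lrat, Reln, Des, Rgs5 and Lum, were not in the table, so they could not be analysed.

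The GTPase genes were low in Sqstm1 KO cells and, for the most part, at WT-like levels in the cells labelled double KO. Against WT, 6 of the 7 fell in Sqstm1 KO and none rose, by limma's moderated test on log2(normalized count + 1) with Benjamini-Hochberg adjustment over all 10118 genes at a threshold of 0.05. Across all tested genes, 3.18% were lower and 2.43% higher in that comparison. Against Sqstm1 KO, 5 of the 7 rose in double KO and none fell, where 4.42% of all tested genes were higher and 1.51% lower. Between double KO and WT none of the 7 was called, where 4.11% of tested genes were higher and 2.31% lower. The summed level of the 7 was 307 ± 35.5 in WT, 61.9 ± 23.3 in Sqstm1 KO and 305 ± 101 in double KO (mean ± SD, n = 3 each). These comparisons share groups, the first and second sharing Sqstm1 KO, so a low value there moves both. In such bulk libraries, fewer expressing cells and less RNA per cell cannot be told apart.

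**Figure D1:**
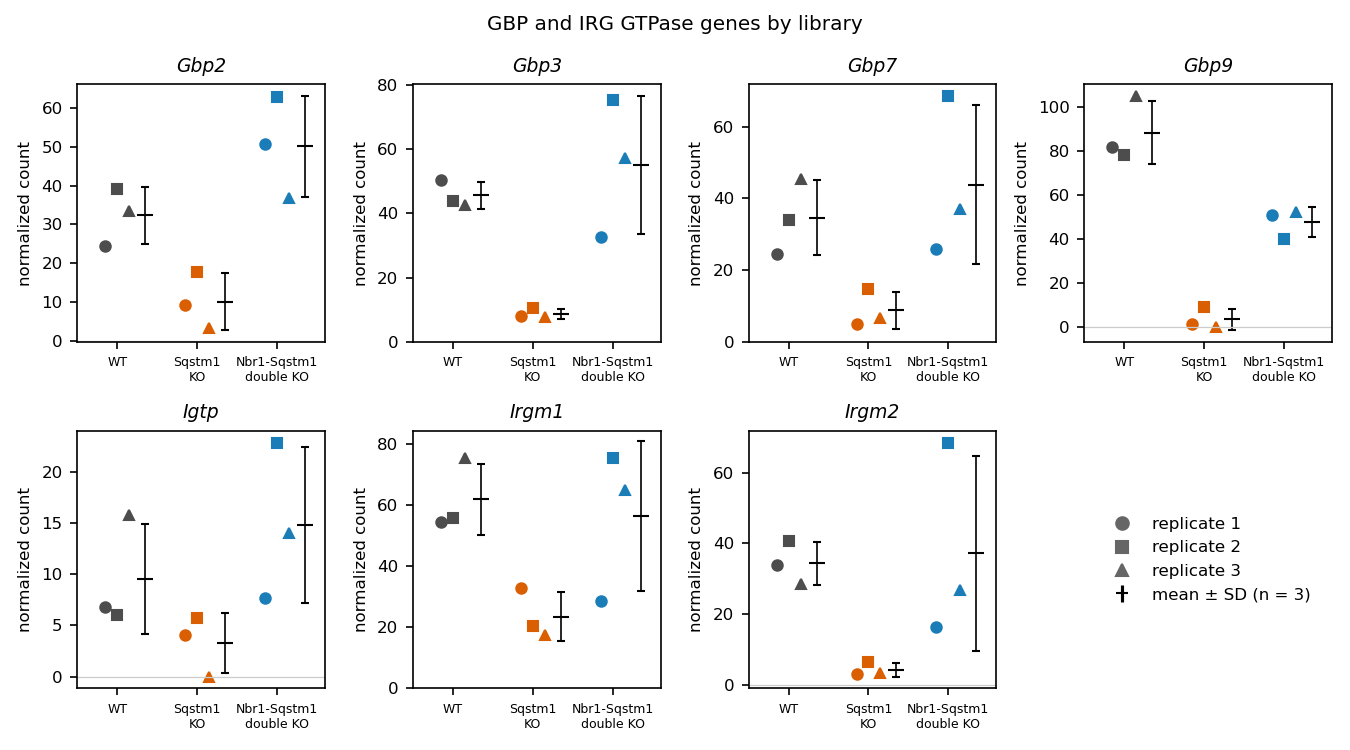
Normalized count (linear vertical axis, one scale per gene) of the 7 genes in each library, by genotype, with symbols for the replicates and the mean ± SD (n = 3) beside them. The 3 Sqstm1 KO libraries lie below the 3 WT libraries for all 7 genes, and double KO lies above Sqstm1 KO without overlap for 6, Irgm1 being the exception.

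Gbp9, a GBP of the chromosome 5 cluster, showed the widest difference. Its normalized count was 81.7, 78.3 and 105 in WT replicates 1 to 3, 1.02, 8.93 and 0 in Sqstm1 KO and 50.7, 40.0 and 52.2 in double KO. The 3 groups did not overlap: WT was highest, double KO intermediate and Sqstm1 KO near or at 0. In Sqstm1 KO it fell by 5.03 on the log2 scale against WT (SE 0.61, adjusted p = 0.0002), and in double KO it was 4.15 higher than in Sqstm1 KO (SE 0.61, adjusted p = 0.000763). Its mean in double KO, 47.6 ± 6.68, was lower than the 88.3 ± 14.5 of WT, a log2 difference of -0.88 with a 95% interval from -2.18 to 0.43 that did not pass the test (adjusted p = 0.443). With only these 2 groups in the fit the same difference was called (adjusted p = 0.0287). Gbp9 was the only one of the 7 whose double KO and WT values did not overlap, and 15.5% of all tested genes separated that way with double KO lower.

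The members on chromosome 3, Gbp2, Gbp3 and Gbp7, fell by less in Sqstm1 KO on the log2 scale than Gbp9 did. Gbp3 had normalized counts of 50.4, 43.7 and 42.4 in WT, 8.17, 10.6 and 7.59 in Sqstm1 KO and 32.5, 75.3 and 57.3 in double KO. The Sqstm1 KO libraries were tightly grouped and far below both other groups, which overlapped each other. Gbp3 fell by 2.26 on the log2 scale in Sqstm1 KO against WT (SE 0.34, adjusted p = 0.00131) and was 2.45 higher in double KO than in Sqstm1 KO (SE 0.34, adjusted p = 0.000511).

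Gbp2, a prenylated GBP that is recruited to Toxoplasma vacuoles, had 24.5, 39.2 and 33.4 in WT, 9.19, 17.9 and 3.25 in Sqstm1 KO and 50.7, 62.8 and 36.9 in double KO. Its Sqstm1 KO values spread over a wide range but stayed below every other library. Gbp2 fell by 1.81 on the log2 scale against WT (SE 0.47, adjusted p = 0.0361), and rose by 2.42 in double KO over Sqstm1 KO (SE 0.47, adjusted p = 0.00594). The call against WT was near the threshold: it was lost in 7 of the 9 fits that leave out 1 library, with adjusted p from 0.0508 to 0.16 there, and with only the 2 groups compared (adjusted p = 0.0916).

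Gbp7 had 24.5, 33.9 and 45.5 in WT, 5.10, 14.6 and 6.51 in Sqstm1 KO and 25.8, 68.5 and 36.9 in double KO. Sqstm1 KO was again below all other libraries, and double KO overlapped WT. Gbp7 fell by 1.95 on the log2 scale against WT (SE 0.44, adjusted p = 0.019) and rose by 2.21 in double KO over Sqstm1 KO (SE 0.44, adjusted p = 0.00766). The fall was not called without WT replicate 2, WT replicate 3 or Sqstm1 KO replicate 1 (adjusted p = 0.0809, 0.103 and 0.063).

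Among the regulatory IRGs, Irgm2 changed most. Its normalized count was 34.0, 40.7 and 28.5 in WT, 3.06, 6.49 and 3.25 in Sqstm1 KO and 16.3, 68.5 and 26.7 in double KO. Sqstm1 KO lay below both other groups, and double KO was the most scattered, with a coefficient of variation of 74.4%. Irgm2 fell by 2.79 on the log2 scale against WT (SE 0.48, adjusted p = 0.00301) and was 2.67 higher in double KO than in Sqstm1 KO (SE 0.48, adjusted p = 0.00356).

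Irgm1, which is found on the Golgi, lysosomes and mitochondria, had the smallest fitted fold change of the 7 in both comparisons with Sqstm1 KO. Its values were 54.5, 55.7 and 75.2 in WT, 32.7, 20.3 and 17.4 in Sqstm1 KO and 28.7, 75.3 and 65.0 in double KO. Sqstm1 KO was below WT without overlap, but the lowest double KO library was below the highest Sqstm1 KO library. Irgm1 fell by 1.40 on the log2 scale against WT (SE 0.37, adjusted p = 0.0435), a call lost in 6 of the 9 fits that leave out 1 library. The difference between double KO and Sqstm1 KO was 1.17 (SE 0.37, adjusted p = 0.0919) and was not called, while DESeq2 on the recovered reads called it (adjusted p = 0.0449), as did the fit without double KO replicate 1 (adjusted p = 0.0196).

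Igtp, a regulatory IRG of the endoplasmic reticulum, was the most thinly counted member. Its normalized count was 6.81, 6.03 and 15.8 in WT, 4.08, 5.68 and 0 in Sqstm1 KO and 7.65, 22.8 and 14.0 in double KO. The groups met almost end to end, with the highest Sqstm1 KO library just under the lowest WT library. Its log2 difference was -1.59 in Sqstm1 KO against WT (95% interval -3.10 to -0.07, adjusted p = 0.233) and 2.17 in double KO against Sqstm1 KO (95% interval 0.65 to 3.69, adjusted p = 0.0989), neither called.

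**Figure D2:**
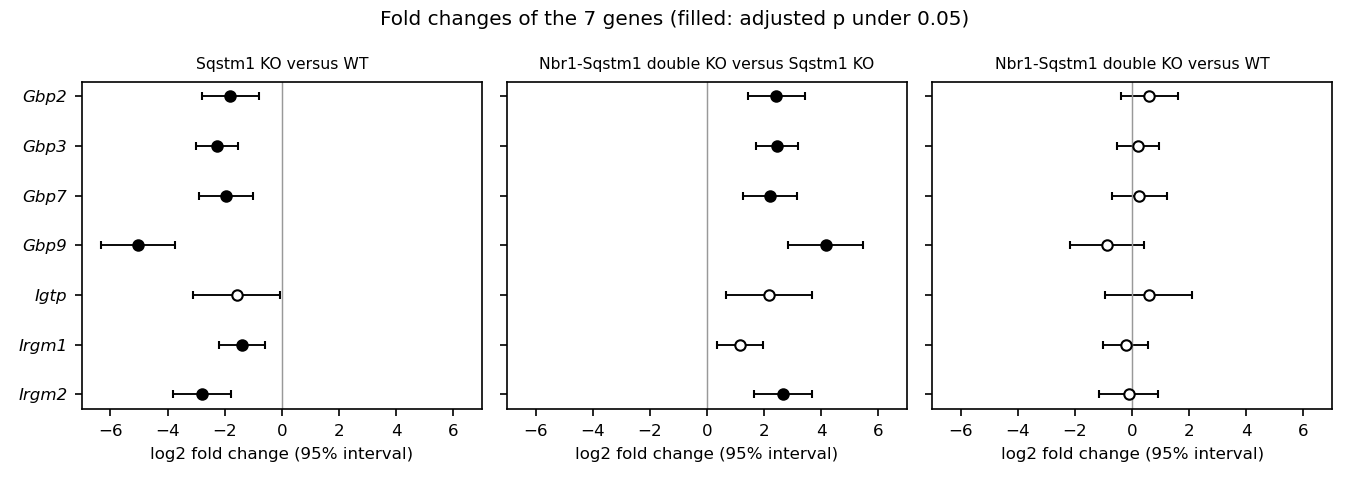
Log2 fold change of each of the 7 genes with its 95% interval from limma, in the 3 comparisons, with filled points for adjusted p under 0.05. The left panel has 6 filled points below 0, the middle panel 5 above 0, and the right panel none.

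Read as a list, the 7 genes had a median log2 fold change of -1.95 in Sqstm1 KO against WT, beside -0.01 over all tested genes. All 7 were lower in Sqstm1 KO without overlap, where 13.6% of tested genes were. In double KO against Sqstm1 KO the median was 2.42, beside -0.01 over all genes, and 6 of 7 separated upward, where 11.5% of tested genes did. The call count against WT depended on single libraries: it was 6 of 7 in all 9 libraries and 3 of 7 without WT replicate 2 or without WT replicate 3, the lost calls being those of Gbp2, Gbp7 and Irgm1. Calls over all tested genes also moved, from 568 in all 9 libraries to between 264 and 659 without 1 library. Without Sqstm1 KO replicate 3, the library that stood apart, 4 of 7 fell against WT and 5 of 7 rose in double KO over Sqstm1 KO. The count of rises in double KO over Sqstm1 KO was 5 or 6 in every alternative run.

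The comparison of double KO with WT gave a median log2 difference of 0.19, beside -0.02 over all tested genes. None of the 7 passed limma's test, none had an unadjusted p under 0.05, and edgeR and DESeq2 on the recovered reads called none. The adjusted p-values ran from 0.443 to 0.912. The intervals do not show equality: that of Gbp2 ran from -0.39 to 1.61, that of Irgm2 from -1.15 to 0.90, and the narrowest, that of Gbp3, from -0.54 to 0.93.

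The double KO libraries differed among themselves in a pattern that most members shared. Replicate 2 was highest of its group for 6 of the 7 genes, and replicate 1 was lowest for 5 (Gbp3, Gbp7, Igtp, Irgm1 and Irgm2). Gbp9 went the other way, being lowest in replicate 2. In Sqstm1 KO, replicate 2 was likewise highest for 6 of 7 and replicate 3 lowest for 5. Over all 9 libraries, the correlation between members' log2 levels ran from 0.714 (Gbp2 with Irgm1) to 0.975 (Gbp3 with Irgm2), with a median of 0.871 over the 21 pairs. Those points share their group means and library depth, and the values are given as a description.

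Of 43 listed symbols of both families, 17 were in the table: the 7 members and 10 others, of which 5 were tested. Of those 5, Gbp6, Iigp1 and Iigp1c were called lower in Sqstm1 KO than in WT and higher in double KO than in Sqstm1 KO. Gbp6 had 12.3, 24.9 and 23.6 in WT, 1.02, 3.25 and 4.34 in Sqstm1 KO and 20.5 to 22.9 in double KO. It fell by 2.51 against WT (adjusted p = 0.00499) and was 2.65 higher in double KO than in Sqstm1 KO (adjusted p = 0.00304).

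The effector IRG Iigp1 and its relative Iigp1c were both low in Sqstm1 KO. Iigp1 had 35.4, 52.7 and 49.1 in WT, 7.15, 3.25 and 3.25 in Sqstm1 KO and 42.1, 77.6 and 33.1 in double KO, and its log2 changes were -3.13 (adjusted p = 0.000339) and 3.21 (adjusted p = 0.000206). Iigp1c had 25.9, 17.3 and 24.9, then 0, 3.25 and 0, then 17.2, 10.3 and 21.7, with log2 changes of -3.85 (adjusted p = 0.00139) and 3.37 (adjusted p = 0.00308). Like Gbp9, Iigp1c was lowest of its double KO group in replicate 2.

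F830016B08Rik, an IRG-like gene, had 8.17, 18.8 and 24.3 in WT and 0, 0.81 and 0 in Sqstm1 KO, and fell by 3.77 on the log2 scale (adjusted p = 0.0128). In double KO it had 0.96, 17.1 and 2.55, high in replicate 2 alone, and was not called against Sqstm1 KO (adjusted p = 0.186). The fall against WT was not called without WT replicate 2 or without WT replicate 3. Irgq, a family relative that interferon is not known for inducing, was flat, with a log2 difference of 0.05 or less in size in each comparison and adjusted p-values from 0.967 to 0.998.

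Another 5 family genes were below the filter, with few reads each, and were seen in a fit with no filter over 14020 genes. Gbp4, the neighbour of Gbp9, had 8.17, 6.78 and 12.1 in WT, 0, 0.81 and 0 in Sqstm1 KO and 0, 1.14 and 0 in double KO. Unlike the 7, it was low in both mutant groups: in that fit it was called lower than WT in Sqstm1 KO (adjusted p = 0.014, where 2.7% of genes were lower) and in double KO (log2 difference -2.92, adjusted p = 0.0143, where 1.98% were). Its mutant groups hold 1 read each, so the fitted values depend on the pseudocount, and Gbp4 shares 60 exonic bases with Gbp9 in GENCODE M21.

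Gm12250, the effector known as Irgb10, showed the reverse. It had 0, 0.75 and 0.61 in WT, 0, 0.81 and 0 in Sqstm1 KO and 7.65, 10.3 and 19.1 in double KO. In the fit with no filter it was 3.15 higher in double KO than in WT (adjusted p = 0.00795) and 3.36 higher than in Sqstm1 KO (adjusted p = 0.0049), where 3.58% and 4.09% of genes were higher. WT and Sqstm1 KO hold 2 reads and 1 read in all, so these fitted values depend on the pseudocount.

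The remaining family genes were not called in any comparison of that fit. Gbp5 had 3.01 to 4.85 in WT, 0 to 7.30 in Sqstm1 KO and 5.71 to 17.2 in double KO. Tgtp2 (Irgb6) had 4.85 to 6.03 in WT, 0 to 1.08 in Sqstm1 KO and 0 to 2.28 in double KO. Ifi47 (Irgd) had 1.82 to 3.01, 0 to 1.08 and 0 to 10.5.

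**Figure D3:**
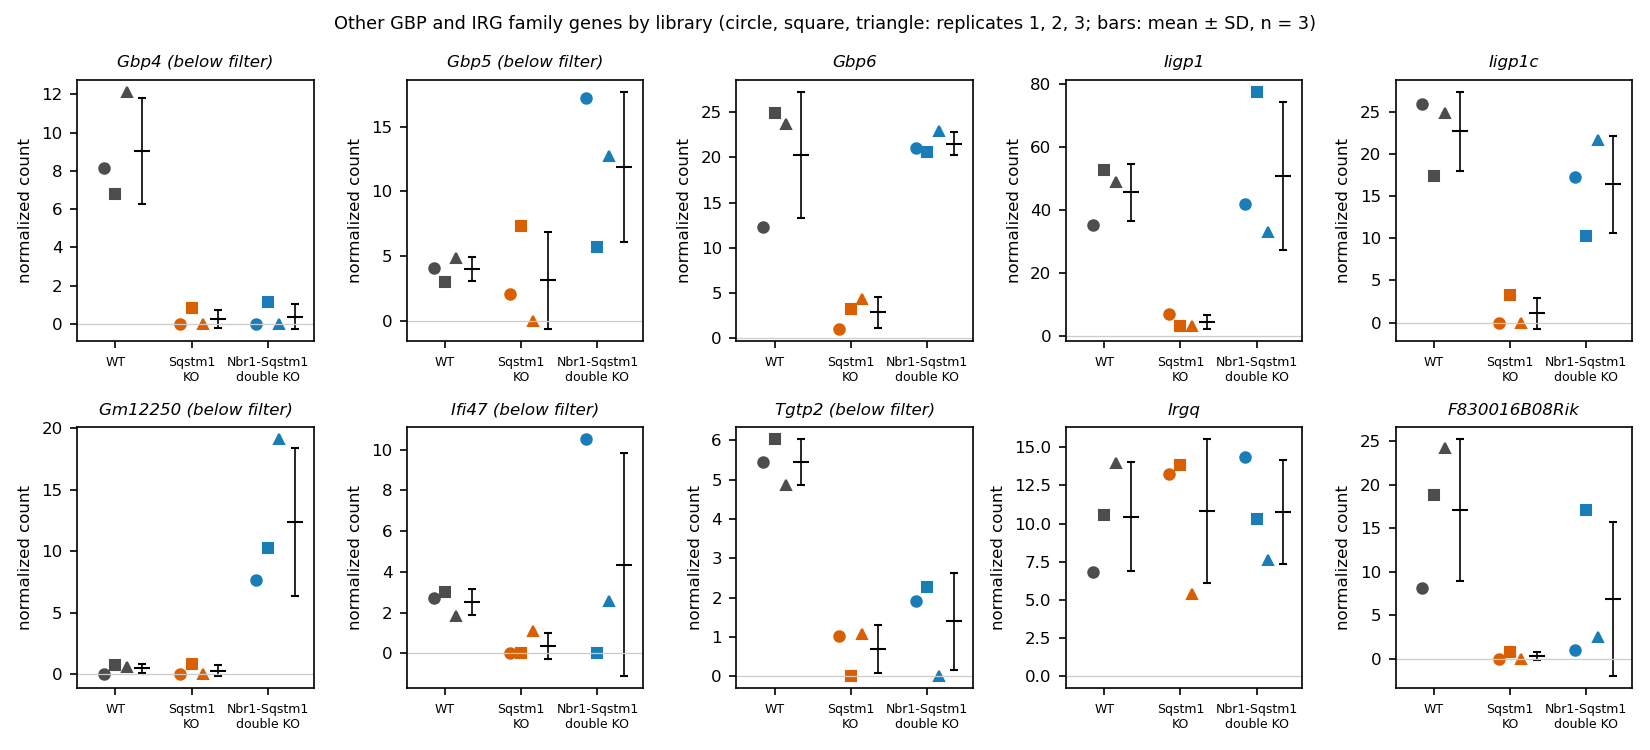
Normalized count (linear vertical axis, one scale per gene) of the 10 other GBP and IRG family genes in the table, by library and genotype, with the mean ± SD (n = 3). Gbp4 and Tgtp2 are low in both mutant groups, Gm12250 is above 7 only in double KO, and Irgq is level.

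Upstream of the GTPases, the receptors did not move as they did. Of 6 tested ligand and receptor genes, none was called by limma, edgeR or DESeq2 in Sqstm1 KO against WT (1 at an unadjusted p under 0.05) or in double KO against Sqstm1 KO (0 so), and 1, Ifnar2, rose in double KO against WT. Ifnar2, a chain of the type I interferon receptor, averaged 17.7 ± 3.12 in WT, 35.4 ± 15.2 in Sqstm1 KO and 47.3 ± 7.90 in double KO (log2 difference 1.37 between double KO and WT, adjusted p = 0.0266), and its call was lost in 5 of the 9 fits that leave out 1 library. Ifnar1 was at 29.0 ± 3.62, 32.0 ± 8.14 and 42.1 ± 14.0, and the type II receptor chains were at 48.2 ± 8.76, 27.9 ± 5.54 and 27.9 ± 21.2 (Ifngr1) and at 25.2 ± 8.07, 45.1 ± 24.8 and 32.8 ± 12.1 (Ifngr2). Il10rb and the ligand Il27 were the other tested genes, with adjusted p of at least 0.258 and 0.343. Il6, a STAT3-activating cytokine, was below the filter at 0 in all WT libraries, 0.81 to 1.08 in Sqstm1 KO and 9.13 to 16.6 in double KO. The interferon genes Ifng, Ifnb1, Ifnl2 and Ifnl3 and the receptor gene Ifnlr1 were not in the table, so they could not be analysed.

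The kinases and transcription factors moved in part. Of 10 tested, 3 fell in Sqstm1 KO against WT (Stat2 and Irf7 among them), 5 rose in double KO against Sqstm1 KO (Stat2, Irf7, Irf9 and Jak2 among them), and none was called between double KO and WT by limma, though 2 had an unadjusted p under 0.05 (Jak2 and Stat3), edgeR called 0 and DESeq2 called 1. Stat2, a transcription factor of interferon signalling, had 38.1, 53.5 and 62.5 in WT, 7.15, 13.0 and 5.42 in Sqstm1 KO and 35.4, 74.2 and 53.5 in double KO. Its library order within double KO was that of most GTPases, with replicate 2 highest and replicate 1 lowest. Stat2 fell by 2.51 against WT (adjusted p = 0.00131) and was 2.56 higher in double KO than in Sqstm1 KO (adjusted p = 0.000872).

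Irf7, at 10.7 ± 5.35, 1.15 ± 1.22 and 13.7 ± 1.97 in the 3 groups, fell by 2.52 (adjusted p = 0.0208) and rose by 2.94 (adjusted p = 0.00708). The fall of Irf7 was not called without WT replicate 1 or 2, or with only the 2 groups compared. Irf9, an interferon regulatory factor, was at 19.6 ± 1.97, 7.44 ± 1.12 and 35.1 ± 14.3. The Irf9 difference from WT, -1.29, missed the threshold (adjusted p = 0.0684), and it rose by 2.01 in double KO over Sqstm1 KO (adjusted p = 0.00569). Jak2 was at 61.5 ± 8.38, 43.9 ± 18.4 and 122 ± 19.9 and rose by 1.54 over Sqstm1 KO (adjusted p = 0.0116).

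Another 5 genes of this list were not called in any of the 3 comparisons. Irf1, which can drive both GTPase families, averaged 32.0 ± 7.81 in WT, 21.9 ± 4.35 in Sqstm1 KO and 20.6 ± 11.2 in double KO, with log2 differences of -0.52 in Sqstm1 KO against WT (adjusted p = 0.526) and -0.21 in double KO against Sqstm1 KO (adjusted p = 0.818). The rest of these 5 were Jak1, Stat3, Irf2 and Ciita. Tyk2 and Nlrc5 were below the filter, with Nlrc5 at 4.85 to 7.53 in WT, 0 to 3.25 in Sqstm1 KO and 8.92 to 27.7 in double KO. Irf8 and Batf2 were not in the table, so they could not be analysed. The call counts of this list moved with single libraries: without WT replicate 2, 1 of 10 fell against WT, and without double KO replicate 1, 4 did.

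Genes listed as inhibitors of interferon signalling gave a mixed picture. Of 6 tested, 1 fell in Sqstm1 KO against WT (Isg15) and 2 rose in double KO against Sqstm1 KO (Isg15 and Socs3). Between double KO and WT limma and edgeR called none, DESeq2 called 1, and 1 had an unadjusted p under 0.05. Isg15, an interferon-induced ubiquitin-like modifier placed in this list, had 31.3, 40.7 and 34.6 in WT, 2.04, 4.06 and 19.5 in Sqstm1 KO and 87.0, 52.5 and 56.0 in double KO. It fell by 2.42 against WT (adjusted p = 0.0172) and rose by 3.24 over Sqstm1 KO (adjusted p = 0.00212). The fall was not called in 4 of the fits without 1 WT or Sqstm1 KO library, those without each WT replicate and without Sqstm1 KO replicate 1. With only the 2 groups compared it was not called either. Socs3 was at 5.89 ± 4.68, 2.53 ± 1.50 and 21.9 ± 7.30, a rise of 2.73 over Sqstm1 KO (adjusted p = 0.0316) that was not called under quantile normalization, without Sqstm1 KO replicate 2, without double KO replicate 1 or without double KO replicate 3. Socs3 reached a value of 10 only in the double KO libraries, so it entered the test through the group where it was high.

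Other interferon-gamma target genes were counted in the same way. Of 16 tested, 5 fell in Sqstm1 KO against WT, and 8 rose in double KO against Sqstm1 KO. Between double KO and WT limma called none, with 3 at an unadjusted p under 0.05, and edgeR and DESeq2 called 1 each. The median log2 changes were -1.07, 1.65 and 0.37. Cd274, the checkpoint ligand PD-L1, fell by 2.50 (adjusted p = 0.000573) and rose by 2.48 (adjusted p = 0.000446). The class I heavy chain gene H2-K1 fell by 2.24 (adjusted p = 0.000895) and rose by 2.73 (adjusted p = 0.000131). Psmb8, among the 8 that rose, reached a value of 10 only in the double KO libraries (14.3, 18.3 and 24.2). Psmb8 thus entered the test through the group where it was high. Without Sqstm1 KO replicate 3 the counts were 7 and 10, and 2 genes were called higher in double KO than in WT. Without WT replicate 2 or 3 the count of falls was 3.

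Genes tied to the GTPases by protein chemistry rather than by interferon were rarely called. None of 8 tested dynamin-superfamily GTPases outside the family (atlastins, dynamins, Opa1 and mitofusins) was called in any comparison by limma, edgeR or DESeq2, with median log2 differences of -0.0024, -0.18 and -0.21 and 1, 0 and 1 genes at an unadjusted p under 0.05. A single one was called lower in double KO than in WT when only those groups were fitted and when Sqstm1 KO replicate 3 was left out. Mx2, an interferon-induced member of that list, was below the filter, at means of 6.50, 1.08 and 10.8. Mx1 was also listed but was not in the table, so it could not be analysed. None of 5 prenylation or GDI genes was called by limma, edgeR or DESeq2, and 0 had an unadjusted p under 0.05.

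Of 14 genes for ATG8 conjugation and ubiquitin adaptors, 1 fell in Sqstm1 KO against WT, the deleted Sqstm1, and none was called by limma or edgeR in double KO against Sqstm1 KO, with 2 at an unadjusted p under 0.05. Lgals3, a galectin that marks damaged vacuoles, had a log2 difference of -1.99 there (adjusted p = 0.0599) and was called by DESeq2 (adjusted p = 0.0245), at a pseudocount of 5 (0.0407), under quantile normalization (0.0361) and without double KO replicate 2 (0.0267). Without Sqstm1 KO replicate 3, Lgals9 was called higher (adjusted p = 0.0298). Between double KO and WT 2 fell, Sqstm1 and Lgals3, whose mean was 34.6 ± 7.86 for WT and 6.67 ± 5.30 for double KO (log2 -2.56, adjusted p = 0.0164), a call lost when any 1 of the 3 WT libraries was left out. Of 3 tested inflammasome genes, Casp4, the caspase-11 gene whose activation GBPs promote, fell by 1.95 in Sqstm1 KO (adjusted p = 0.0465). That call was lost in 6 of the 9 fits that leave out 1 library, at a pseudocount of 0.5 and with only the 2 groups compared. The Casp4 difference of 1.75 in double KO over Sqstm1 KO was not called (adjusted p = 0.0731), while DESeq2 and the fit without Sqstm1 KO replicate 3 called it.

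**Figure D4:**
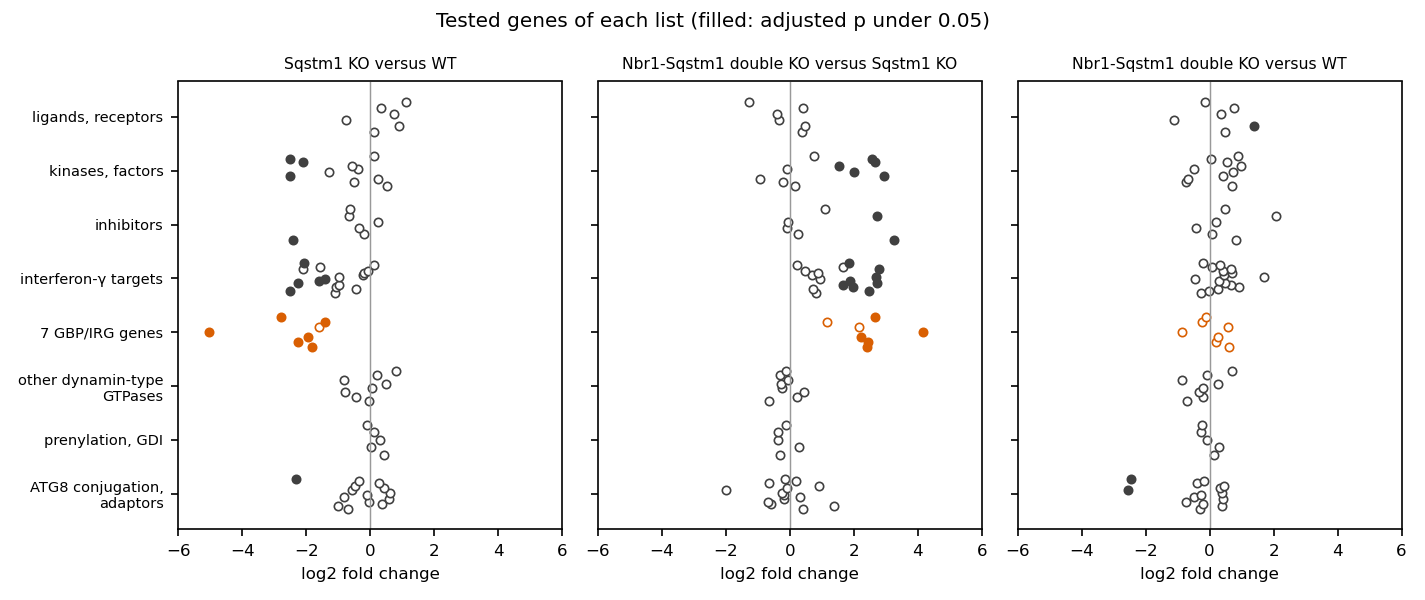
Log2 fold change of every tested gene of 7 lists and of the 7 GTPases (orange) in the 3 comparisons, with filled points for adjusted p under 0.05. The filled points of the kinases and factors and of the interferon-gamma targets lie on the same side of 0 as those of the GTPases in the left and middle panels, whereas the other dynamin-type GTPases and the prenylation genes have none.

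By likeness over the 9 libraries (Pearson r of log2 levels, given as a description, since the libraries share group means and depth), the mean profile of the 7 was nearest to Stat2 (0.992), then Brwd3 (0.976), Rtp4 (0.975), Mir6381 (0.971) and Abca1 (0.970). Gbp9 was nearest to Iigp1c (0.987), Gbp2 to Enpp2 (0.987), Gbp3 to Tmem252 (0.983), Igtp to Zbtb6 (0.940), Irgm1 to Kdm5b (0.941) and Irgm2 to Pde3b (0.980). Stat2 and Mir6381 were each among the 5 nearest genes of 3 members, more than any other gene.

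Mir6381 bears on how the Gbp2 value should be read. It is an annotated miRNA gene of 87 bases on the opposite strand from Gbp2, sharing 24 exonic bases with it in GENCODE M21, which is on another build than the files. Its listed mean was 51.9 ± 6.07 in WT, 10.5 ± 3.68 in Sqstm1 KO and 73.8 ± 46.9 in double KO, with log2 changes of -2.25 (adjusted p = 0.00362) and 2.58 (adjusted p = 0.00111). The shared bases are 0.954% of the exonic length of Gbp2 and 27.6% of that of Mir6381. Whether counting used strand is not given in the sources used here, so reads over those shared bases cannot be assigned to either gene. On the same strand, Igtp shares 162 exonic bases with Irgm2, Gbp9 shares 60 with Gbp8 and with Gbp4, and Gbp7 shares 637 with the pseudogene Gm43802. Outside the members, Gbp6 shares 1726 exonic bases, 29% of its exonic length, with the protein-coding gene Gm43302 on the same strand. Genes within each family are also related in sequence, to a degree not measured here. How reads were split among such genes is therefore uncertain. Gbp3 and Irgm1 share no exonic base with another gene.

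Markers of other cells were looked for, since immune cells express these GTPases strongly. Of 19 macrophage markers, 4 were in the table (Csf1r, Cd68, Cd14 and Mpeg1), with a summed level of 20.3 to 35.4 in WT, 8.68 to 12.3 in Sqstm1 KO and 14.3 to 29.3 in double KO. The sum moved with the GTPases through Cd14, at 17.6 ± 3.73, 1.29 ± 1.59 and 11.1 ± 5.90 (log2 changes -3.24 and 2.53, adjusted p = 0.00459 and 0.0203). The second Cd14 call was lost without double KO replicate 3 and with only the 2 groups compared. Csf1r, Cd68 and Mpeg1 had group means between 1.77 and 4.28 in all 3 groups. The defining markers Adgre1, Ptprc, Lyz2 and the C1q genes were not in the table, so they could not be analysed. The part of such cells in the result was not tested. None of the 10 lymphocyte or 5 neutrophil markers was in the table, and of 10 endothelial markers Stab2 alone was, at 9.70 to 16.3 in WT, 2.17 to 8.17 in Sqstm1 KO and 2.87 to 12.6 in double KO, with no call.

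Of 7 portal fibroblast and mesothelial markers, Thy1, Fbln2 and Igfbp6 were in the table, with a summed level of 202 to 244 in WT, 231 to 432 in Sqstm1 KO and 311 to 316 in double KO. Igfbp6 moved with the GTPases, at 25.7 ± 5.59, 2.30 ± 2.45 and 11.6 ± 3.66 in the 3 groups (log2 changes -3.33 and 2.23, adjusted p = 0.00384 and 0.0404), and the second call was lost in 8 of the 9 fits that leave out 1 library. That call was also lost at a pseudocount of 0.5, with edgeR and with only the 2 groups compared. Fbln2, the other tested marker of that list, was not called. The single hepatocyte marker of 10 in the table, Apoa2, was at 36.4 to 106 in WT, 68.2 to 110 in Sqstm1 KO and 73.1 to 117 in double KO, and the cholangiocyte markers Sox9 and Spp1, of 5, summed to 16.3 to 26.4, 29.2 to 34.7 and 25.8 to 49.1, with no call in either list. The part of these cells in the result was not tested.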

How the data were processed

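The deposited signal is normalized: the authors scaled each library's gene read counts by a single size factor. STAR, DESeq2 and build GRCm39 are named in the submitters' processing notes; counter, annotation and strandedness are not given in these sources. All nonzero values (100% of 121126, tolerance 0.01) were integer multiples of the smallest in their library, which gave back whole reads. No column was left out (0).

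Here, limma 3.58.1 (R 4.3.3) was fitted with a mean-variance trend to log2(value + 1) in all 9 libraries, two-sided, without covariates, which understates changes of low genes. An exact permutation test of 3 against 3 libraries cannot go below p = 0.1. Alternatives were other pseudocounts and filters, quantile normalization, edgeR 4.0.16 and DESeq2 1.42.0 on the recovered reads, 2-group fits, a replicate block and leaving out each library. The code was tested on simulated data. The text names all members, other family genes, genes of the 2 signalling lists, up to 4 called genes per other list and comparison, and nearest profiles; not every gene allowed is printed, and the nearest profile of Gbp7 is not reported here. Members and lists were chosen with earlier results of these data known. Motifs were searched with Python 3.11.15 and Biopython 1.88.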

Additional observations from a re-analysis of the deposited data

How the results depend on the processing

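Over the alternatives run, each member kept its direction in both comparisons with Sqstm1 KO; Igtp could not be fitted at a filter of 20. Leaving out 1 library gave 3 to 6 members called in Sqstm1 KO versus WT, 5 to 6 in double KO versus Sqstm1 KO and 0 in double KO versus WT, where fitting only the 2 groups compared gave 1 (Gbp9). Calls of Gbp9, Gbp3 and Irgm2 held in all these fits for both comparisons with Sqstm1 KO. Between double KO and WT some log2 differences changed sign when 1 library was left out: Gbp3 ranged from -0.069 to 0.52, Gbp7 from -0.12 to 0.57, Irgm1 from -0.49 to 0.19, Irgm2 from -0.68 to 0.32 and the members' median from -0.12 to 0.52. Irgm2 also did so with edgeR (0.11) and DESeq2 (0.11); the cause was not tested. All-gene counts of 568, 600 and 650 ranged over 264 to 659, 333 to 777 and 294 to 1409 without 1 library, and with only 2 groups the last 2 were 352 and 1229. Same-numbered libraries had deviations correlated from -0.12 to 0.18 (5 of 9 pairs over 0.1), and differently numbered ones from -0.26 to 0.26 (3 of 18 over 0.1). These values do not settle whether the numbers pair the libraries. The labels do not say so, and the numbers were not taken to pair them. The replicate block gave 6, 5 and 0 members called. Outside the family, that block called Lgals3 lower in double KO than in Sqstm1 KO (adjusted p = 0.0219). With 35 to 570 member reads per library, counting error limits Igtp most.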
